A study of Mus musculus with 8 samples.

Results

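Gene expression was compared between mouse leukaemia cells at 12h and at 0h in a series that induces the transcription factor KLF4. The comparison rests on 4 of the 8 libraries of the series: replicates 1 and 2 labelled 12h, and replicates 1 and 2 labelled 0h. The 12h libraries came from TetO-Klf4-AML cells with the MLL-AF9 fusion, sorted for GFP from leukaemic mice, with bone marrow as tissue and C57BL/7 as the strain label. The 0h libraries carry the same transgene, fusion, tissue and strain labels and differ from them only in the time point. The remaining 4 libraries, 2 at 6h and 2 at 24h, entered the same model and help to estimate the spread. The starting event of the hours is not stated in the labels, and a control with doxycycline but no transgene was not analysed here. The labels tie no replicate to a mouse of its own, so p-values here speak of the spread among these libraries alone, and that spread may be technical.

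KLF4 is a zinc finger factor that binds GC-rich and CACCC elements, and it is known for its part in epithelial barrier formation, in monocyte differentiation and in reprogramming to pluripotency. MLL-AF9 joins a chromatin-binding part of KMT2A to MLLT3 and keeps HoxA genes and Meis1 active in acute myeloid leukaemia. Cells under amino acid shortage or endoplasmic reticulum stress use another route, in which phosphorylated eIF2 slows translation and the factor ATF4 is made; ATF4 then activates genes for amino acid transport and synthesis and for tRNA charging. Genes of each of these programmes were followed here, with the genes of the growth machinery.

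The 12h libraries held 23489556 and 23416697 gene counts, and the 0h libraries 20394546 and 22467328. At these depths 0 counts allow up to 0.128 CPM in either 12h library, against 0.147 and 0.134 CPM in the 0h libraries, a limit that covers counting error only. CPM are counts scaled to library size, with TMM scaling between libraries. Fragments assigned to no gene feature made up 8.63% ± 0.45 of the fragments at 12h and 5.47% ± 0.32 at 0h (SD, n = 2 each). A count above 0 was found for 20260 and 20589 genes at 12h, against 18887 and 19072 genes at 0h. The 14 markers of the labelled cells were all tested: 2 rose and 7 fell, and their summed level was 3807 and 3787 CPM at 12h, against 3942 and 3942 CPM at 0h. The 8 B cell markers summed to 12 and 13.5 CPM at 12h, against 13.6 and 14.9 CPM at 0h, with Ms4a1 and Pax5 among those at 0 counts in all 4 libraries, and the 12 markers of T and NK cells to 8.08 and 8.69 CPM at 12h, against 7.29 and 7.6 CPM at 0h, with Cd3e, Cd3g, Cd8a, Gzma and Ncr1 at 0. The 12 erythroid markers summed to 13.8 and 15.6 CPM at 12h, against 13.5 and 13.2 CPM at 0h, and the 9 of megakaryocytes to 18.4 and 18.2 CPM at 12h, against 24.8 and 24.5 CPM at 0h, with Gp6 among those at 0. Those of eosinophils, mast cells and basophils summed to 118 and 121 CPM at 12h, against 138 and 138 CPM at 0h and those of dendritic cells to 60.9 and 63.1 CPM at 12h, against 64.9 and 67.4 CPM at 0h. The 14 endothelial and stromal markers summed to 50.7 and 49.6 CPM at 12h, against 44.7 and 48.2 CPM at 0h, nearly all of it from Pdgfrb, with Col1a2, Dcn, Emcn and Kdr at 0. Their part in the results below was not tested. In bulk samples such as these, fewer cells of a type and less RNA per cell cannot be told apart.

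Of the 14263 genes tested, 43.7% were called at an adjusted p under 0.05 in edgeR's quasi-likelihood test, 22.1% higher and 21.6% lower at 12h. The direction of the calls differed by level. Among the 4685 well expressed genes, those with a mean of at least 50 CPM over the 4 libraries, 963 rose and 1907 fell, and the median size of a called change was 0.23 on the log2 scale. Among the 1039 genes at 200 CPM or more, 174 rose and 556 fell. Falls made up 40.7% of the well expressed genes and 53.5% of the genes at 200 CPM or more. Counts of called list members below were not tested and are to be read beside such shares. Among the 2538 genes under 1 CPM, 517 rose and 42 fell, and 509 of the rises and 40 of the falls were 2-fold or more. The median SE there was 0.51 on the log2 scale, against 0.05 for the well expressed genes, so smaller changes could hardly be called. The filter on low counts used all 8 libraries, so genes low at 0h could be kept by their later counts. The filter's part in the balance under 1 CPM was not tested. Only 18 of the well expressed genes rose at least 2-fold and 0 fell as far, against 6.46% and 0.456% of all genes tested. Tested against a fold of 1.5, 45 well expressed genes were higher and 3 lower; over all genes 4.21% passed this test, 4.06% higher and 0.147% lower. Keeping only genes whose mean log2 CPM reached 1, the stricter of the filters tried, left 267 rises and 8 falls of 2-fold or more, against 922 and 65.

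**Figure D1:**
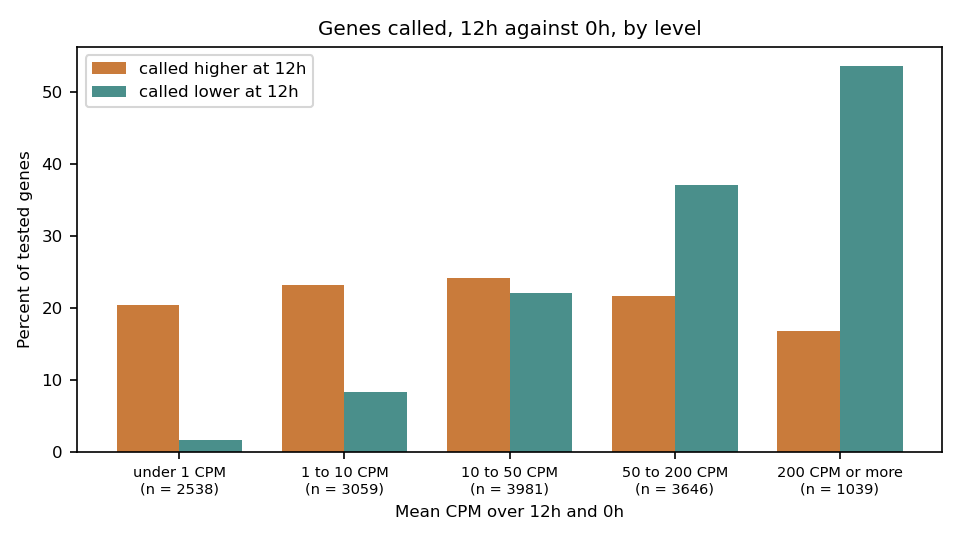
Percent of tested genes called higher or lower at 12h against 0h (y axis), by mean CPM over the 4 libraries (x axis), with the number of genes in each class under its name. Calls towards lower make up 1.65% of genes under 1 CPM and 53.5% of genes at 200 CPM or more, while calls towards higher stay between 16.7% and 24.1%. Under 1 CPM, changes short of 2-fold could hardly be called.

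Transcript length and base composition moved with the direction of the calls. In the highest of 4 equal groups by exon length 1187 rose and 566 fell, and in the lowest group 475 rose and 795 fell. In the highest of 4 groups by G and C content 1097 rose and 616 fell, whereas falls outnumbered rises in the other 3 groups. Their part in the results was not tested beyond a correction for GC and length. That correction made 6225 calls, of which 5049 were also made with the same sign without it. It left 49.8% of the calls higher, against 50.6% before. When the mean gene was centred as well, it left 24.3% higher and placed the median gene at -0.14 on the log2 scale, so small changes in either direction are relative to the scaling, and each list whose balance turned under a correction is named as such below.

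**Figure D2:**
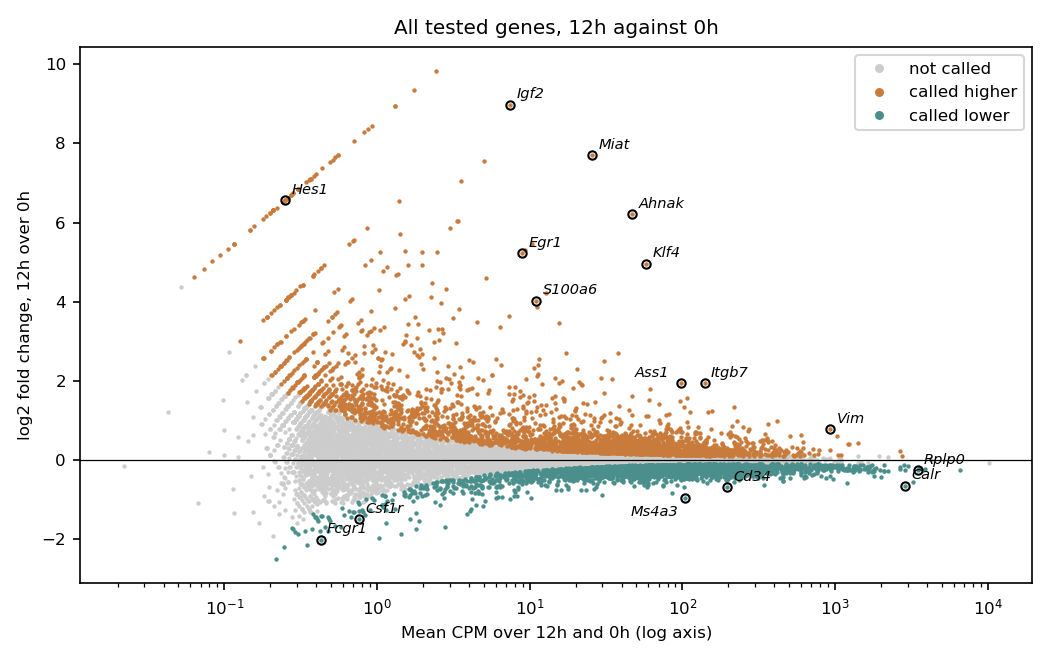
The log2 fold change of 12h over 0h (y axis) against the mean CPM over the 4 libraries on a log axis (x axis), 1 point per tested gene, coloured by call. Large rises lie mostly at low levels, with Klf4, Ahnak and Itgb7 among the exceptions, and no well expressed gene was called lower by 2-fold or more; lines of points at the upper left are genes with 0 or 1 counts at 0h.

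Klf4 (ENSMUSG00000003032, chr4:55527143-55532466, minus strand) stood at 2722 and 2648 counts at 12h, against 54 and 96 counts at 0h. In CPM it had 115 and 111 CPM at 12h, against 2.71 and 4.42 CPM at 0h. The pairs did not overlap, and the log2 fold change was 4.96 ± 0.09 (adjusted p = 2.6e-32); SEs in this text were computed back from the F statistic, so they understate the error of big rises that start from few counts. The transgene's reads cannot be told from those of the endogenous gene.

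Most tested members of the KLF and SP family also rose. Of 16 tested, 12 rose and 0 fell, with a median log2 fold change of 0.44 against 0.0018 over all tested genes. Klf3, a repressor of the family that binds CACCC elements, had 66.5 and 65.2 CPM at 12h, against 9.9 and 10.3 CPM at 0h. Klf2, known for quiescence in T cells and endothelium, had 15.3 and 14.6 CPM at 12h, against 5.43 and 4.47 CPM at 0h. In both genes each 12h library lay above both 0h libraries, as for 35.9% of all genes tested. Their log2 fold changes were 2.70 ± 0.08 and 1.60 ± 0.12. Klf13 had 93.3 and 95.4 CPM at 12h, against 47.7 and 46.6 CPM at 0h, and the TGF-beta-induced Klf10 rose by 1.12 on the log2 scale. Klf1, the erythroid factor, was not called, with 0.06.

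The windows that carry CACCC-type letters are shown for 3 of the genes that rose, because KLF4 is known to bind such elements. Windows of 300 bases, 250 before and 50 after the annotated start, were taken from RefSeq on build GRCm38.p6 and are printed 5′ to 3′ on the gene's strand. Capitals mark CCCCACCC or its reverse complement. The windows are chr5:64803271-64803570, plus strand for Klf3, chr15:102231886-102232185, minus strand for Itgb7 and chr14:34085729-34086028, plus strand for Anxa8.
Klf3: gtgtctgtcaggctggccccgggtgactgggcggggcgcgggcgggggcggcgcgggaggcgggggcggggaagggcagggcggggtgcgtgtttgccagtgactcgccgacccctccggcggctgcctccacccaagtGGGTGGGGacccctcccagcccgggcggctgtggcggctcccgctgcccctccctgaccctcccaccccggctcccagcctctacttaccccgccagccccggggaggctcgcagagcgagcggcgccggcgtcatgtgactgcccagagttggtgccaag
Itgb7: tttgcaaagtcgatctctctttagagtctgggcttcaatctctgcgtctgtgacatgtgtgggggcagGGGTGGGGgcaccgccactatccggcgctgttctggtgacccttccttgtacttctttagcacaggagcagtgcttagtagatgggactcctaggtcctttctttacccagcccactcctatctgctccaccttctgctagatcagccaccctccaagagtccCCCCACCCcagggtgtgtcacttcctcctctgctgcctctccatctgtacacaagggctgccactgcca
Anxa8: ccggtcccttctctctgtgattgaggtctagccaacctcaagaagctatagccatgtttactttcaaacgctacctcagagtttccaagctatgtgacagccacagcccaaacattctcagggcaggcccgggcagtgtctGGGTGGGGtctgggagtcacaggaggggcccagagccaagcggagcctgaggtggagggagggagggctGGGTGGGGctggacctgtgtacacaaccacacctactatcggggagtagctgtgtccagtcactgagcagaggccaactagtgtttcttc
The first base of the match lies at -111 in Klf3, at -19 and -182 in Itgb7, and at -109 and -40 in Anxa8, counted from the start. CCCCACCC, searched on both strands, was found in 9.99% of the 32851 promoter windows, in 12.4% of the windows of tested genes and in 22.1% of the 520 windows of genes that passed the 1.5-fold test towards higher. The median GC content of those windows was 52.7% over all windows, 60.7% for tested genes and 62.7% for the genes past 1.5-fold, and its part in the difference was not tested. Of the genes past 1.5-fold, 393 had a window. CCACACCC stood in 3.56%, 3.97% and 6.15% of the same 3 sets. Of the other letters searched, TGACTCA, an AP-1 element, stood in 5.20%, 3.69% and 3.85% of them, and TGACGTCA in 1.79%, 3.03% and 1.54%. A match says only that these letters are in the window.

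The well expressed genes with the largest rises came from unlike pathways. Ass1 (ENSMUSG00000076441, chr2:31470207-31520672, plus strand), which makes argininosuccinate on the way to arginine, had 153 and 156 CPM at 12h, against 38.5 and 41.7 CPM at 0h. Itgb7 (ENSMUSG00000001281, chr15:102215995-102231944, minus strand), the β7 integrin chain that pairs with α4 or αE in adhesion to mucosal ligands, had 217 and 227 CPM at 12h, against 56.4 and 59.5 CPM at 0h. Fold changes on the log2 scale were 1.94 ± 0.05 and 1.94 ± 0.05, with adjusted p = 1.5e-26 for Ass1 and adjusted p = 5.8e-28 for Itgb7. Neither gene's 12h values came near its 0h values, and the choice of genes required that they not overlap.

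Fam129b, now called Niban2 and linked to cell survival, had 97 and 94.7 CPM at 12h, against 26.3 and 28.8 CPM at 0h. E2f2, an activator E2F of the cell cycle, had 156 and 162 CPM at 12h, against 56.5 and 51.9 CPM at 0h. S100a10, which binds annexin A2 and carries AHNAK at the membrane, had 90.2 and 90.3 CPM at 12h, against 30.7 and 32.3 CPM at 0h. All 3 genes stood more than 2-fold higher at 12h, with log2 fold changes of 1.80 ± 0.06, 1.55 ± 0.05 and 1.52 ± 0.06. Kif21b, a kinesin that restrains microtubule growth, had 142 and 140.3 CPM at 12h, against 53.4 and 48.3 CPM at 0h, and Pi16, a secreted peptidase inhibitor, had 101 and 104 CPM at 12h, against 38.7 and 38.8 CPM at 0h. The cation channel Tpcn1 and the lysosomal membrane protein Sidt2 rose too: Sidt2 had 314 and 309.6 CPM at 12h, against 124 and 126 CPM at 0h, and the changes were 1.33 ± 0.05 for Tpcn1 and 1.32 ± 0.04 for Sidt2. Add3, a subunit of the spectrin-actin linker adducin, had 227 and 213 CPM at 12h, against 94 and 93.6 CPM at 0h. Pck2, the mitochondrial enzyme that makes phosphoenolpyruvate, had 208 and 202 CPM at 12h, against 85.8 and 91.9 CPM at 0h. These 11 genes and Klf4 all passed the test against a 1.5-fold change.

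**Figure D3:**
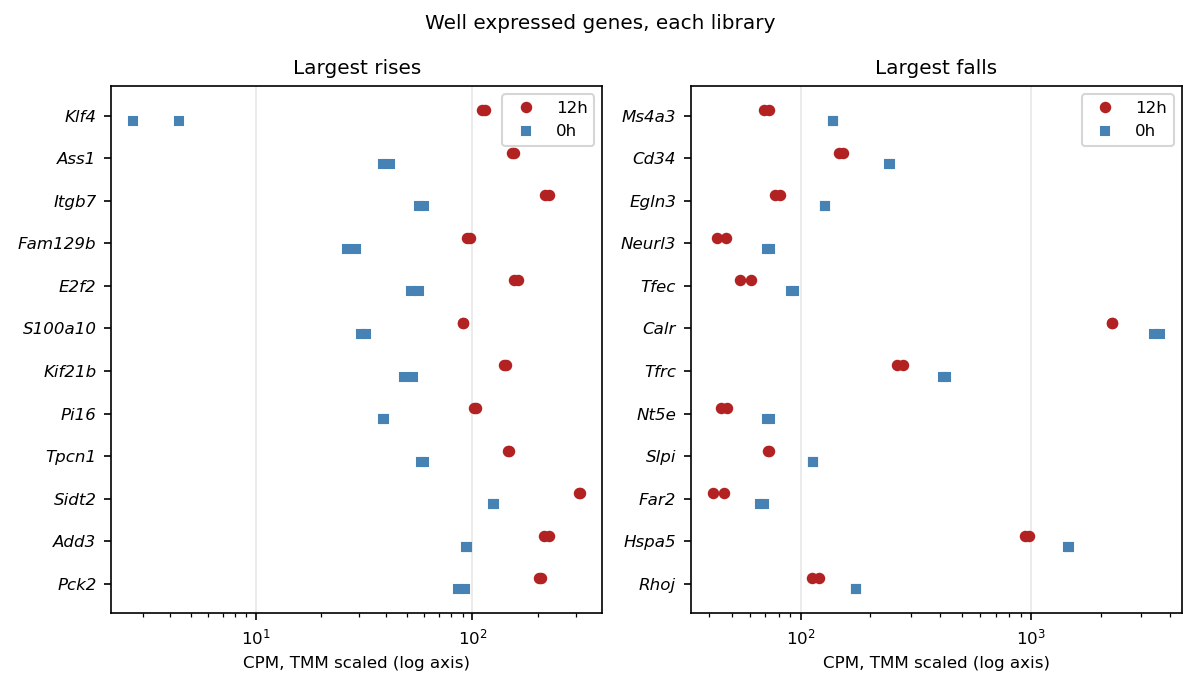
CPM in each library on a log axis (x axis) for the 12 well expressed genes with the largest rises and the 12 with the largest falls (y axis), 12h as circles above and 0h as squares below. The pairs of libraries do not overlap for any of the 24 genes, which the choice of genes required, and the falls span a narrower range, from -0.96 to -0.58 on the log2 scale.

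Falls among well expressed genes were smaller. Ms4a3 (ENSMUSG00000024681, chr19:11629496-11640851, minus strand), a membrane protein of granulocyte-monocyte progenitors, had 72.6 and 68.9 CPM at 12h, against 138 and 137 CPM at 0h. Cd34 (ENSMUSG00000016494, chr1:194938819-194961279, plus strand), the progenitor sialomucin, had 153 and 146 CPM at 12h, against 242 and 244 CPM at 0h. Fold changes on the log2 scale were -0.96 ± 0.05 (adjusted p = 1.1e-18) and -0.70 ± 0.04 (adjusted p = 2.6e-16), and of the 12 falls shown these 2 passed the test against a 1.5-fold change, with adjusted p = 1.7e-08 and adjusted p = 0.027. The remaining well expressed gene that passed towards lower, BC035044 (-0.83), is not shown because genes with clone names were left out as predicted models. Egln3, a prolyl hydroxylase that marks HIF subunits for degradation, had 80.7 and 77.4 CPM at 12h, against 127 and 127 CPM at 0h. Tfrc, the transferrin receptor, had 277 and 261 CPM at 12h, against 425 and 415 CPM at 0h. For Egln3 and Tfrc every 12h value lay under every 0h value, which the choice of genes required. Nt5e, the CD73 enzyme that makes adenosine from AMP, changed by -0.64, the antiprotease Slpi by -0.64, the MiT factor Tfec by -0.68, the ubiquitin ligase Neurl3 by -0.68, the fatty acyl reductase Far2 by -0.63 and the GTPase Rhoj by -0.58.

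Measured in fragments rather than folds, other genes lead. Vim, the vimentin filament, had 1185 and 1164 CPM at 12h, against 675 and 707 CPM at 0h, a gain of 484 CPM. Flna, the actin crosslinker filamin A, had 1244 and 1218 CPM at 12h, against 809 and 827 CPM at 0h, and the noncoding Xist had 1371 and 1432 CPM at 12h, against 1120.3 and 1001 CPM at 0h. Scd2, a stearoyl-CoA desaturase, had 1393 and 1377 CPM at 12h, against 1042 and 1044 CPM at 0h. The mitochondrially encoded mt-Nd2 and mt-Cytb rose by 0.41 and 0.21 on the log2 scale, while mt-Co1 fell, with -0.25. The largest losses were in Calr, the ER chaperone calreticulin, with 2241 and 2230.4 CPM at 12h, against 3426 and 3608 CPM at 0h, and in Hspa8, the constitutive HSC70 chaperone, with 2674 and 2572 CPM at 12h, against 3842 and 3953 CPM at 0h. Hsp90ab1 (-0.24), the ribosomal stalk protein Rplp0 (-0.26) and the ferritin light chain Ftl1 (-0.44) followed. None of these 5 falls passed the 1.5-fold test.

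The genes downstream of ATF4 rose nearly throughout. Of 14 regulators and feedback genes 13 rose and 0 fell, with a median log2 fold change of 0.79, and their summed level was 1385 and 1415 CPM at 12h, against 847 and 879 CPM at 0h. Trib3, a pseudokinase that restrains ATF4 and AKT, had 51.1 and 53.4 CPM at 12h, against 9.05 and 9.49 CPM at 0h. Chac1, which degrades glutathione, had 35.4 and 33.8 CPM at 12h, against 9.1 and 9.58 CPM at 0h, and Nupr1, a stress-induced chromatin protein, had 24.9 and 24.4 CPM at 12h, against 6.53 and 6.35 CPM at 0h. The 12h pairs stood well above the 0h pairs, by 2.49 ± 0.08, 1.89 ± 0.09 and 1.94 ± 0.10 on the log2 scale. Atf5 (0.81) and Sesn2 (0.62), a leucine sensor that restrains mTORC1, rose less. The member not called was Gdf15, a secreted stress cytokine, at 1.75 (8 and 8 counts at 12h, against 1 and 3 counts at 0h).

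The synthesis of amino acids and one-carbon units moved the same way, with 12 of 17 rises and 2 falls and a median of 0.59. Cth, which makes cysteine from cystathionine, had 26.1 and 25.6 CPM at 12h, against 6.58 and 6.45 CPM at 0h. Aldh1l2, the mitochondrial 10-formyltetrahydrofolate dehydrogenase, had 30.5 and 29.1 CPM at 12h, against 8.19 and 8.61 CPM at 0h, and Gpt2, mitochondrial alanine transaminase, had 114 and 112 CPM at 12h, against 49.6 and 50.6 CPM at 0h. Each of the 3 genes was at least 2-fold higher, by 1.99 ± 0.10, 1.82 ± 0.09 and 1.17 ± 0.05 on the log2 scale. The 2 members that fell, Shmt1 (-0.22) and Mthfd1 (-0.30), are the cytosolic enzymes of the folate cycle. Their mitochondrial partners Shmt2 (0.60) and Mthfd2 (0.84) rose.

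Amino acid transporters rose in 15 of 21 cases and fell in 2, with a median of 0.43. Slc7a11, the cystine-glutamate exchanger, had 34.6 and 32.5 CPM at 12h, against 9.25 and 7.97 CPM at 0h, and the glycine transporter Slc6a9 had 16.6 and 19.8 CPM at 12h, against 4.27 and 4.05 CPM at 0h. Slc1a4, for alanine, serine and cysteine, had 47 and 47.2 CPM at 12h, against 19.8 and 21.3 CPM at 0h. The groups were apart in all 3, with changes of 1.97 ± 0.09, 2.13 ± 0.13 and 1.20 ± 0.07. The members that fell were Slc38a10 (-0.17) and the branched-chain transporter Slc43a2 (-0.17), the last not without 12h replicate 1 (adjusted p = 0.18). The promoter windows of Slc7a11 (chr3:50443564-50443863, minus strand) and Chac1 (chr2:119350992-119351291, plus strand) are shown because both hold TTGCATCA, the composite element that C/EBP and ATF factors are known to bind, in capitals on either strand.
Slc7a11: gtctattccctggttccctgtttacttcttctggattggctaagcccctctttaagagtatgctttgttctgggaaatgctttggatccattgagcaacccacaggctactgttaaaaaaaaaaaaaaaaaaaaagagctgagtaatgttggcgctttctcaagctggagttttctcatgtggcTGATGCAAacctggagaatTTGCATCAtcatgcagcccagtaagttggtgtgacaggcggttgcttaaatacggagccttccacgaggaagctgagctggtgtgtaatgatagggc
Chac1: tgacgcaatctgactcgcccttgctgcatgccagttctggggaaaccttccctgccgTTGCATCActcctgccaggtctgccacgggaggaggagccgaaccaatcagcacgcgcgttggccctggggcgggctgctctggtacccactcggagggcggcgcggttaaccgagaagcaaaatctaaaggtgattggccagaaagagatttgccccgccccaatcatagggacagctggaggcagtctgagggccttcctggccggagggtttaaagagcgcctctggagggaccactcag
The matches start at -47 and -66 in Slc7a11 and at -193 in Chac1. TTGCATCA was found in 0.895% of all windows, in 0.686% of windows of tested genes and in 2.69% of those of genes higher past 1.5-fold. In windows of ATF4 regulators it stood in 4 of 16, and in those of amino acid and one-carbon synthesis in 2 of 16. For the transporters it was 4 of 26, and for the cytosolic tRNA synthetases 4 of 12. A gene can have more than 1 window or none. These counts are a description with no test.

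Cytosolic tRNA synthetases, which charge tRNAs with their amino acids, split by member: 13 of 20 rose and 6 fell, a balance that the correction centring the mean gene turned to 8 higher and 9 lower. Cars rose by 0.67 ± 0.04 on the log2 scale, Gars by 0.49 ± 0.04, Sars by 0.37 ± 0.04 and Nars by 0.33 ± 0.04. In these genes each 12h library exceeded both 0h libraries, as for 35.9% of all genes tested. The 6 that fell were both chains of the phenylalanine enzyme, Farsa (-0.32) and Farsb (-0.13), with Kars (-0.31), Hars (-0.23), Rars (-0.21) and Qars (-0.17). Farsb was not called without 12h replicate 2 (adjusted p = 0.11), without 0h replicate 2 (adjusted p = 0.09) or after the GC and length correction (adjusted p = 0.96), nor was Rars after that correction (adjusted p = 0.061). Their mitochondrial counterparts took little part, with 2 rises and 4 falls of 17, a balance of 2 and 2 without 0h replicate 2 and of 0 and 2 without 12h replicate 1 or 0h replicate 1. The tRNA synthetase sum was 5405 and 5390.4 CPM at 12h, against 4773 and 4874 CPM at 0h.

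Among eIF2, eIF2B and translation initiation genes falls outnumbered rises, beside falls in 40.7% of genes of at least 50 CPM. Of 14 eIF2 kinases, eIF2 subunits and eIF2B subunits, 3 rose and 10 fell, with a median of -0.27. Among the kinases Eif2ak3, the PERK sensor of the ER, rose by 0.28 ± 0.06. Ppp1r15b, which targets the phosphatase to eIF2, rose by 0.20 ± 0.04. The exchange factor subunits fell, for example Eif2b1 (-0.37) and Eif2b2 (-0.34). Of 29 translation initiation factors 19 fell and 4 rose; Eif4a1, the main helicase, changed by -0.31 and Eif5a by -0.30. Without 12h replicate 2 or 0h replicate 2, 2 initiation factors rose, and Eif4a2 (0.16), paralog of Eif4a1, was not called. The mTORC1 list was mixed, with 6 rises and 9 falls of 27 tested and a median of -0.03. Over all genes tested 22.1% were higher and 21.6% lower. In that list Sesn2, given above, and Castor1, an arginine sensor (1.06), rose, and the scaffold subunit Lamtor4 (-0.46) and Flcn (-0.42) fell.

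**Figure D4:**
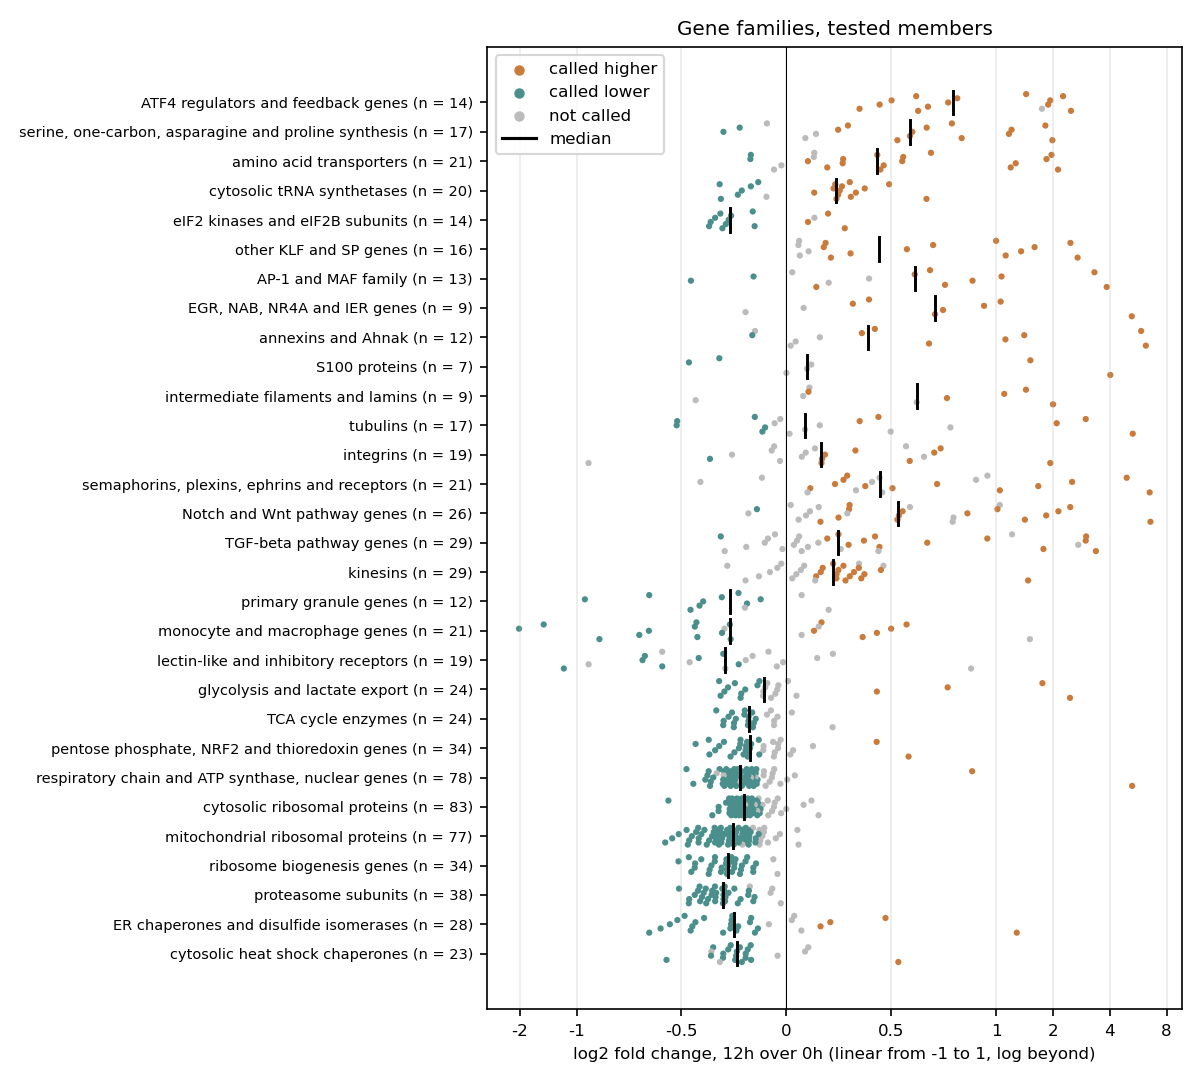
The log2 fold change of 12h over 0h (x axis, linear between -1 and 1 and logarithmic beyond) of each tested member of 30 gene families (y axis), coloured by call, with the family median as a bar; members with 0 counts at 0h are drawn at the fitted value. Medians run from 0.79 for ATF4 regulators to -0.30 for proteasome subunits, and the growth machinery at the bottom forms narrow clusters left of 0.

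Most genes of the growth machinery fell by small amounts. Falls were called for 21.6% of all genes tested, 40.7% of those at 50 CPM or more and 53.5% of those at 200 CPM or more. Of 83 cytosolic ribosomal protein genes 67 fell and 0 rose, with a median log2 fold change of -0.20, and their sum was 80655 and 79294 CPM at 12h, against 90539.6 and 92944 CPM at 0h. Of 77 mitochondrial ribosomal protein genes 64 fell and 0 rose (median -0.25). The ribosome biogenesis list had 32 falls and 0 rises of 34 (median -0.28), led by the nucleolar proteins Nop16 (-0.51), Fbl (-0.46), Nhp2 (-0.45) and Bop1 (-0.44). For proteasome subunits the numbers were 34 and 0 of 38 (median -0.30), with Psmc5 at -0.51 ± 0.05 and Psmd12 at -0.47 ± 0.05. Against a fold of 1.5 none of these members passed.

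Nuclear genes of the respiratory chain and ATP synthase showed the same, with 61 falls of 78 and a median of -0.22. The 2 members that rose are both variants of restricted expression. Ndufa4l2, a HIF-induced relative of a complex IV subunit, had 50 and 47 counts at 12h, against 0 and 2 counts at 0h, a ratio of 42.3 with a 95% counting interval from 11.4 to 354. Cox6a2, the heart and muscle form of a complex IV subunit, had 3.49 and 3.01 CPM at 12h, against 2.06 and 1.47 CPM at 0h, and was not called without 0h replicate 2 (adjusted p = 0.055). Of 24 TCA cycle enzymes 17 fell and 0 rose (median -0.18), for example Pdhb (-0.33), Idh3a (-0.30) and Sdhd (-0.30). Of 13 genes encoded on mitochondrial DNA 3 rose and 1 fell, which the centring correction turned to 2 and 3.

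Most chaperones fell, in the ER and in the cytosol. In the ER 20 of 28 fell and 4 rose, and the list summed to 10846 and 10665 CPM at 12h, against 13913 and 14067 CPM at 0h. Hspa5, the BiP chaperone, had 975 and 938 CPM at 12h, against 1452 and 1447 CPM at 0h, and Calr, given above, lost more. Sdf2l1 (-0.52) and Pdia6 (-0.46) fell with them. Herpud1 (0.47 ± 0.05), of ER-associated degradation, rose with Derl3 (1.29), Dnajb9 (0.21) and the sensor Atf6 (0.16); 2 of these 4 were called without any 1 of 12h replicate 2, 0h replicate 1 and 0h replicate 2. In the cytosol 17 of 23 heat shock and chaperonin genes fell, and Hspa4l (0.53 ± 0.06) was the 1 that rose. Hsph1 (-0.35) and the chaperonin subunit Cct3 (-0.36) were among the falls.

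Some calcium-binding membrane proteins had large rises. Ahnak, a giant scaffold under the plasma membrane, had 93.2 and 92.6 CPM at 12h, against 0.804 and 1.66 CPM at 0h, and its groups were far apart, with a log2 fold change of 6.21 ± 0.11 (adjusted p = 2.6e-32). S100a6, a partner of annexins, had 21.2 and 20.6 CPM at 12h, against 1.31 and 1.24 CPM at 0h. Anxa8 had 5.64 and 6.18 CPM at 12h, against 0.0503 and 0.138 CPM at 0h, and Anxa1 and Anxa2, which bind phospholipid with calcium, had changes of 1.12 ± 0.06 and 0.68 ± 0.04. In all 7 of 12 annexin and Ahnak genes rose, and Anxa3 (-0.16) fell, though not after the GC and length correction (adjusted p = 0.12). The S100 family did not move as 1: 2 rose and 2 fell of 7, 4 rises and 2 falls after the GC and length correction, and the falls were S100a13 (-0.32) and S100a1 (-0.46), the last not without 12h replicate 2 (adjusted p = 0.058). The neutrophil pair S100a8 (0.12) and S100a9 (0.00) was not called, but S100a8 was after the GC and length correction (adjusted p = 0.017).

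The filament systems changed by member. Of 9 intermediate filament genes 5 rose and 0 fell, with Lmna, the A-type lamin, at 32.4 and 33.2 CPM at 12h, against 10.7 and 13.4 CPM at 0h and a change of 1.44 ± 0.10. Vim rose by 0.77 ± 0.04, and the keratin Krt80 by 1.10 ± 0.17. Tubulins divided into 5 rises and 5 falls, 5 and 7 under the centring correction, 6 and 3 under a stricter filter on low counts, and 4 and 2 without 12h replicate 2 or 0h replicate 2. The rises included isotypes known from neurons: Tubb3 had 18.6 and 17.6 CPM at 12h, against 0.151 and 0.737 CPM at 0h, and Tubb2b changed by 2.09 ± 0.24. Tubb6 (-0.52 ± 0.06) and Tuba8 (-0.52 ± 0.07) were the largest of the falls. In the actin list 11 rose and 14 fell of 34, 13 and 13 under the stricter filter and 10 and 9 without 0h replicate 2. Lsp1, a leukocyte F-actin binding protein, had 23.5 and 25.1 CPM at 12h, against 1.21 and 1.38 CPM at 0h, and Actn1 (0.96), Capg (0.72), Zyx (0.57) and Vcl (0.56) rose as well; Capg caps filament ends, and Zyx and Vcl are proteins of adhesions. The smooth muscle actin Acta2 changed by -0.70.

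Motor proteins of the kinesin family rose in 16 of 29 cases and fell in 0, with a median of 0.22; without 12h replicate 1 the rises numbered 9. Behind Kif21b the changes were small, with Kif14 (0.37), Kif23 (0.36) and Kif15 (0.30), all motors of mitosis. Integrins rose in 8 of 19 cases and fell in 1, 4 and 4 under the centring correction; without 0h replicate 2 there were 5 rises, and without any other of the 4 libraries 0 falls, the 1 fall being Itgb3 (-0.36). The α chains Itga5 (0.70 ± 0.05) and Itga6 (0.59 ± 0.04), receptors for fibronectin and laminin, rose with Itgb7. The guidance molecules had 12 rises and 0 falls of 21. Plxnb2, a semaphorin receptor, had 7.28 and 6.35 CPM at 12h, against 1.41 and 0.967 CPM at 0h, and Sema3b, a secreted semaphorin, had 89 and 92 counts at 12h, against 4 and 1 counts at 0h.

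Genes typical of epithelia and of neurons rose in part, from low levels. Among epithelial junction and barrier genes 8 of 16 tested rose and 2 fell (1 without 0h replicate 2), and 14 of the 29 on the list stayed under 1 CPM in all 4 libraries. Dsp, the desmosomal linker desmoplakin, had 7.11 and 6.73 CPM at 12h, against 2.26 and 2.12 CPM at 0h, and Evpl, envoplakin of the cornified envelope, had 11.9 and 13.3 CPM at 12h, against 3.92 and 3.13 CPM at 0h. Jup, plakoglobin, rose by 0.69 ± 0.07, while its close relative Ctnnb1, beta-catenin, fell by 0.27 on the log2 scale. Among neuronal genes 8 rose and 2 fell of 17 tested out of 34. Nrbp2, a pseudokinase, had 19.7 and 20.6 CPM at 12h, against 0.402 and 0.506 CPM at 0h, and Uchl1, a neuronal deubiquitinase, had 1.98 and 1.92 CPM at 12h, against 0.452 and 0.138 CPM at 0h. The 2 falls were Chga, chromogranin A (-0.62 ± 0.08), and the neurofilament gene Nefh (-0.26).

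Most tested immediate early and AP-1 genes rose. Of 13 AP-1 and MAF genes 8 rose and 2 fell. Jun had 20.3 and 21.5 CPM at 12h, against 1.31 and 1.57 CPM at 0h, and Fosb had 4.67 and 5.01 CPM at 12h, against 0.452 and 0.506 CPM at 0h; both pairs were clear of the 0h values, with log2 fold changes of 3.85 ± 0.15 and 3.32 ± 0.29. Junb (0.61) and Jdp2 (0.89) rose less. Batf (-0.46) fell, and the other fall, of Mafk (-0.16), was not called without any 1 of 12h replicate 1, 12h replicate 2 and 0h replicate 2. In the EGR and NR4A list 7 of 9 rose and 0 fell. Egr1, the growth-factor response gene, had 16.2 and 18.5 CPM at 12h, against 0.553 and 0.368 CPM at 0h, and Nr4a1 (1.06), Ier2 (0.94) and Ier3 (0.75) followed. The ERK feedback list was mixed, with 4 rises and 2 falls of 14, 3 and 3 after the GC and length correction and 2 and 2 without 0h replicate 1. In it the phosphatase Dusp1 rose by 1.48 ± 0.16, and Dusp6, which acts on ERK, changed by -0.62 ± 0.10.

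Myeloid transcription factors moved in part. Of 18 C/EBP, PU.1 and IRF factors 10 rose and 4 fell, which the centring correction turned to 3 and 9; 6 rose without 12h replicate 2 or 0h replicate 1. Cebpb, of emergency granulopoiesis and macrophages, had 116 and 119 CPM at 12h, against 70 and 73.1 CPM at 0h, and Irf8, of the monocyte and dendritic lineages, had 68.1 and 72.5 CPM at 12h, against 49.7 and 49.5 CPM at 0h. Under the centring correction Cebpb was not called (adjusted p = 0.14). Cebpd fell, with 39.6 and 39.8 CPM at 12h, against 52.6 and 57.6 CPM at 0h, as did Gfi1 (-0.32), a repressor needed for neutrophils, and Myb (-0.30). Spib, a relative of PU.1, had 58 and 85 counts at 12h, against 2 and 1 counts at 0h, a ratio of 41.6 with a 95% counting interval from 13.9 to 204.

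The genes that MLL-AF9 is known to maintain changed little. Within the HoxA cluster with Meis and Pbx 5 of 15 rose and 2 fell, 3 and 5 under the centring correction. Hoxa2 had 5.22 and 5.77 CPM at 12h, against 1.41 and 1.52 CPM at 0h, and Hoxa4 rose by 0.88 ± 0.17. Hoxa9, which the fusion is best known for, was not called, with 0.08 and 435 and 439 CPM at 12h, against 422 and 405 CPM at 0h, but was under the stricter filter (adjusted p = 0.031), in the 4 libraries alone (adjusted p = 0.02) and after the GC and length correction (adjusted p = 0.012), each time towards higher. Meis1 (-0.20 ± 0.05) fell, and the other fall, of Hoxa7 (-0.17), was not called without 12h replicate 2 or 0h replicate 1. Other genes of the programme fell in 10 of 18 cases, for example Mef2c (-0.39 ± 0.07) and Myc (-0.26 ± 0.04), and the chromatin organiser Satb1 (0.96 ± 0.15) rose. Fusion cofactors had 5 rises and 1 fall of 17, turned to 2 and 6 by the centring correction, and 0 falls without 12h replicate 2 or 0h replicate 1. Among chromatin regulators Dnmt3l, a cofactor of DNA methylation, had 16 and 16.1 CPM at 12h, against 26.3 and 28 CPM at 0h.

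Granule and surface genes of myeloid cells differed by list. Of 12 primary granule genes 9 fell and 0 rose, and the sum was 5161 and 5089.8 CPM at 12h, against 6872 and 7147 CPM at 0h. Calr, an ER chaperone that the list holds and that is also on the ER and class I lists, made up most of that difference; without it the sum was 2919 and 2859 CPM at 12h, against 3446 and 3539 CPM at 0h, and 8 of 11 genes fell. Beside Ms4a3 and Calr, the granule proteoglycan Srgn changed by -0.41 ± 0.04 and the serine protease Prtn3 by -0.46 ± 0.05. Late neutrophil genes rose in 4 cases of 17 and fell in 0, against 22.1% and 21.6% of all genes tested. Among the rises were Ly6g (18.6 and 19.2 CPM at 12h, against 3.37 and 3.82 CPM at 0h) and Padi4 (0.91 ± 0.05), which citrullinates histones. Mmp25, a membrane protease of neutrophils, had 32 and 36 counts at 12h, against 0 and 0 counts at 0h, at least 19.8-fold higher when the 0h group is set to 3 counts in all.

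Monocyte genes went both ways, with 6 rises and 11 falls of 21, and 3 rises without any 1 of 12h replicate 1, 12h replicate 2 and 0h replicate 1. This list and those that follow stand beside 22.1% higher and 21.6% lower of all genes tested. Among genes of at least 50 CPM 40.7% fell. The proteoglycan Vcan rose by 0.57 ± 0.10. Adgre1, a macrophage surface receptor, fell, with 49.6 and 49.7 CPM at 12h, against 64 and 69 CPM at 0h, and Fcgr3 and Ccr2 changed by -0.44 ± 0.04 and -0.43 ± 0.06. Larger falls were seen at low levels: the M-CSF receptor Csf1r had 8 and 11 counts at 12h, against 26 and 21 counts at 0h, and the high-affinity IgG receptor Fcgr1 had 2 and 6 counts at 12h, against 11 and 18 counts at 0h. Csf1r was not called without 0h replicate 1 (adjusted p = 0.056), nor Fcgr1 without 12h replicate 1 (adjusted p = 0.1) or 0h replicate 2 (adjusted p = 0.099). Lectin-like and inhibitory receptors fell in 7 of 19 cases and rose in 0, led by Clec5a (3.07 and 3.01 CPM at 12h, against 7.79 and 5.94 CPM at 0h) and Milr1 (-0.67). Cytokine receptors fell in 10 of 26 and rose in 4: Il21r (-0.77) and Ifngr1 (-0.35) fell, and Il6ra (0.49), Igf2r (0.39) and Il2rg (0.30) rose. In the list of chemokines and their receptors 4 of 13 tested fell and 2 rose, or 0 without 12h replicate 1 or 0h replicate 1. Ccl6 (-0.63) and Ccl9 (-0.36) were among the falls, as was Gpr183 (-0.90), which the list holds though it is not a chemokine receptor.

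Notch, Wnt, TGF-beta and imprinted genes rose more often than they fell, beside 22.1% higher and 21.6% lower of all genes tested. Among all genes of 1 to 10 CPM 23.1% rose and 8.3% fell, and under 1 CPM 20.4% and 1.7%. In the Notch and Wnt list 14 of 26 rose and 1 fell (median 0.53). The receptors Notch1 (0.54 ± 0.05) and Notch2 (0.55 ± 0.05), the ligand Jag2 (2.14 ± 0.17) and the Wnt transducer Dvl1 (0.53 ± 0.07) were higher at 12h. Under the centring correction 7 rose and 5 fell, and Notch1 (adjusted p = 0.056) and Dvl1 (adjusted p = 0.12) were not called; the 1 fall, of Hes6 (-0.14), was not called without any 1 of 12h replicate 1, 0h replicate 1 and 0h replicate 2. Hes1, a direct Notch target, had 6 and 18 counts at 12h, against 0 and 0 counts at 0h, at least 6.98-fold higher with the 0h group set to 3 counts in all. In the TGF-beta list 12 of 29 rose and 1 fell. Ltbp4, which stores latent TGF-beta, had 21 and 29 counts at 12h, against 1 and 3 counts at 0h, Tgfbi had 96 and 105 counts at 12h, against 7 and 15 counts at 0h and Id3 had 61 and 69 counts at 12h, against 4 and 10 counts at 0h, while its paralog Id1 fell, with 56.5 and 54.1 CPM at 12h, against 65 and 72.2 CPM at 0h. Of 11 imprinted genes tested 6 rose and 1 fell. Igf2, a fetal growth factor, had 327 and 383 counts at 12h, against 0 and 1 counts at 0h, a ratio of 619 with a 95% counting interval from 111 to 24500, and Mest had 58 and 39 counts at 12h, against 7 and 10 counts at 0h.

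Genes that present antigen were called lower in part, beside 21.6% of all genes tested and 40.7% of genes of at least 50 CPM. Of 20 genes of MHC class I presentation 11 fell and 2 rose, and the ER proteins Calr, Canx and Pdia3 were among the falls. H2-K1 changed by -0.26 ± 0.04. It has close relatives in the genome, so its counts are uncertain, and so are those of H2-T23 (0.26) and H2-T24 (0.30), which rose. Without 12h replicate 2 or 0h replicate 1, 1 of these rose. Interferon-stimulated genes were mostly not called, with 3 rises and 7 falls of 29. Ifitm3 had 1.85 and 2.13 CPM at 12h, against 1.01 and 0.921 CPM at 0h, and Ifi27 changed by -0.41. Of 9 class II genes 3 fell, 1 without 12h replicate 1 and 0 without 0h replicate 2.

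Genes of survival and cell cycle were called in part, beside 22.1% higher and 21.6% lower of all genes tested. In the BCL2 family 5 rose and 6 fell of 20, 5 and 5 without the filter on low counts and 3 and 3 without 0h replicate 2. The proapoptotic Bok had 33 and 35 counts at 12h, against 3 and 6 counts at 0h, and Pmaip1, the NOXA protein, rose by 0.42 ± 0.05; the antiapoptotic Bcl2l1, which gives BCL-XL, changed by -0.32 ± 0.07. The effector Bax had 181 and 184 CPM at 12h, against 236 and 247 CPM at 0h. Of 27 p53 target genes 13 fell and 4 rose, with Gadd45a (1.04 ± 0.10) and Plk3 (0.90 ± 0.14) higher and Ei24 (-0.49) and Aen (-0.46) lower. Caspases and death receptor genes had 5 rises and 4 falls of 26, 1 and 10 under the centring correction and 3 and 3 without 12h replicate 1 or 0h replicate 2, with Casp8 at -0.33.

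Of the CDK inhibitors and cyclins 8 rose and 3 fell of 24, which the centring correction turned to 5 and 7; 4 rose without 0h replicate 2. Ccnd3 had 342 and 329 CPM at 12h, against 202 and 206 CPM at 0h, and Cdkn2d (0.54) and Ccng2 (0.66) rose too, while Cdk4 (-0.27) and Ccng1 (-0.45) fell. In the replication list 10 rose and 9 fell of 38, 5 and 17 under the centring correction. The falls numbered 2, 4 and 2 without 12h replicate 1, 12h replicate 2 and 0h replicate 2; the polymerase subunit Pold2 (-0.26 ± 0.05) fell, and the repressor E2f8 (0.36 ± 0.05) rose. Nucleotide synthesis fell in 15 of 26 cases and rose in 3, against 40.7% and 20.6% of genes of at least 50 CPM. Adsl (-0.42), Gart (-0.40) and Aprt (-0.42) of purine metabolism fell, and Rrm2 (0.23) and Dck (0.26) rose. Over all genes tested, to be set beside the histones that follow, 22.1% rose and 21.6% fell. Histone genes, whose unpolyadenylated transcripts and close copies make counts uncertain, had 11 rises and 2 falls of 47, 8 and 9 under the centring correction; 5 and 6 rose without 12h replicate 2 and without 0h replicate 1. The linker histone Hist1h1c had 25.5 and 24.1 CPM at 12h, against 12.3 and 12.1 CPM at 0h.

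Glycolysis changed by isoform. Of 24 genes 10 fell and 4 rose, against 40.7% and 20.6% of genes of at least 50 CPM. The abundant enolase Eno1 had 1965 and 1841 CPM at 12h, against 2269 and 2347 CPM at 0h, a change of -0.28 ± 0.04, while the neuronal form Eno2 had 1.3 and 1.13 CPM at 12h, against 0.151 and 0.276 CPM at 0h and the muscle form Eno3 had 5.09 and 6.98 CPM at 12h, against 1.96 and 1.61 CPM at 0h. Per kilobase of exon the mean levels stayed unequal, with 354 CPM per kb at 12h and 429 at 0h for Eno1 and 3.47 CPM per kb at 12h and 1.03 at 0h for Eno3. Ldha (-0.32) and Pgam1 (-0.31) fell with Eno1. Pfkp (0.43) and Pfkfb4 (0.77), at the phosphofructokinase step, rose. In the hypoxia list 10 of 19 rose and 2 fell. Ndrg1 had 18.3 and 17 CPM at 12h, against 3.17 and 3.91 CPM at 0h, Epas1, which encodes HIF-2α, had 7.87 and 8.98 CPM at 12h, against 2.26 and 2.67 CPM at 0h, and Vegfa had 69.1 and 68.8 CPM at 12h, against 37.4 and 37.5 CPM at 0h. The oxygen sensor Egln3, given above, fell with Egln2 (-0.13), and it was the 1 fall without any 1 of 12h replicate 2, 0h replicate 1 and 0h replicate 2.

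Genes of redox defence fell in 21 of 34 cases and rose in 2, against 40.7% and 20.6% of genes of at least 50 CPM. Prdx1 (-0.37 ± 0.04), Txn2 (-0.37 ± 0.05) and Gsr (-0.32 ± 0.04) were lower, and Nqo1 (0.58 ± 0.10) and Nfe2l1 (0.43 ± 0.04) higher. In fatty acid metabolism 5 rose and 12 fell of 30, with 6 and 7 falls without 12h replicate 2 and without 0h replicate 1. Acacb, whose malonyl-CoA restrains mitochondrial import of fatty acids, had 6.52 and 5.89 CPM at 12h, against 1.31 and 2.21 CPM at 0h; Cpt1a, the importer it restrains, had 79.8 and 77.5 CPM at 12h, against 46.9 and 51 CPM at 0h, and both desaturases Scd1 (0.56) and Scd2 (0.41) rose. Cholesterol genes had 6 rises and 7 falls of 32, 10 and 6 under the stricter filter. Of 19 iron genes 2 rose and 7 fell, 1 and 4 without 12h replicate 2: ferritin heavy chain Fth1 changed by -0.30 ± 0.04, with Ftl1 and Tfrc as given above, and the macrophage metal transporter Slc11a1 rose by 1.06 ± 0.14. Vacuolar ATPase subunits fell in 10 of 17 cases and rose in 1, the proton channel ring gene Atp6v0c (0.62 ± 0.14), not called without 12h replicate 2 (adjusted p = 0.057). The lysosomal list was balanced, at 7 rises and 8 falls of 33, 8 and 5 under the stricter filter and 7 and 2 without 12h replicate 1 or 0h replicate 2. The membrane protein Scarb2 rose by 0.45 ± 0.09, and the factor Tfeb by 0.71 ± 0.10, though not under the centring correction (adjusted p = 0.22).

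Among long noncoding RNAs 7 rose and 5 fell of 21, turned to 4 and 8 by the centring correction, and 3 fell without 12h replicate 2 or 0h replicate 1. Miat had 47.1 and 55.5 CPM at 12h, against 0 and 0.46 CPM at 0h, and its 0h libraries held 0 and 10 counts. Malat1, a nuclear RNA of speckles, had 513 and 591 CPM at 12h, against 295 and 269 CPM at 0h. Of the falls, Epb41l4aos (-0.53) and the snoRNA host gene Snhg5 (-0.34) were the largest.

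A further set of genes had 0 counts in both 0h libraries and at least 20 over the 12h libraries. It held 44 genes, 40 of them protein coding and 42 of them among the 14263 genes tested. Sod3, the extracellular superoxide dismutase, had 130 and 101 counts at 12h, at least 67.2-fold more than the 0h group set to 3 counts in all. Bglap2, an osteocalcin gene with close copies, had 74 and 92 counts at 12h. Lypd2 had 58 and 68, and Cadm3, a neural adhesion molecule, 71 and 54 counts at 12h. In each gene both 12h libraries held reads, while the 0 counts at 0h were what the choice required. Genes with 0 counts at 12h and reads at 0h were not counted.

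The position of 12h between 6h and 24h differed by gene. Between 12h and 6h 10.9% of genes were called higher and 9.79% lower, and between 24h and 12h 3.41% were higher and 3.04% lower; these comparisons share the 12h libraries with the one above. The 2947 calls between 12h and 6h became 1853 without 12h replicate 1 and 1296 without 12h replicate 2. The 921 between 24h and 12h became 373, 386 and 449 without 12h replicate 1, 12h replicate 2 and 24h replicate 2. Itgb7 averaged 57.9 at 0h, 135 at 6h, 222 at 12h and 279.7 CPM at 24h. Its change from 6h to 12h was 0.72 ± 0.04, adjusted p = 3.8e-15 on the log2 scale, and from 12h to 24h 0.33 ± 0.04, adjusted p = 3.8e-07. Ass1 averaged 40.1 at 0h, 103 at 6h, 154 at 12h and 184 CPM at 24h, and Sidt2 125 at 0h, 259.7 at 6h, 312 at 12h and 228 CPM at 24h. Of these, Sidt2 was lower at 24h than at 12h, with -0.45 ± 0.04, adjusted p = 2.3e-10. Among the falls, Ms4a3 averaged 138 at 0h, 112 at 6h, 70.8 at 12h and 69.3 CPM at 24h, with -0.67 ± 0.05, adjusted p = 5.2e-13 for 12h over 6h and -0.03 ± 0.05, adjusted p = 0.81 for 24h over 12h. Cd34 averaged 243 at 0h, 187 at 6h, 149.6 at 12h and 116 CPM at 24h, with -0.37 ± 0.04, adjusted p = 1.1e-07 for 24h over 12h. Tfrc had -0.19 ± 0.04, adjusted p = 0.002 for 12h over 6h and -0.04 ± 0.04, adjusted p = 0.66 for 24h over 12h. Klf4 itself averaged 3.57 at 0h, 151 at 6h, 113 at 12h and 77.8 CPM at 24h.

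**Figure D5:**
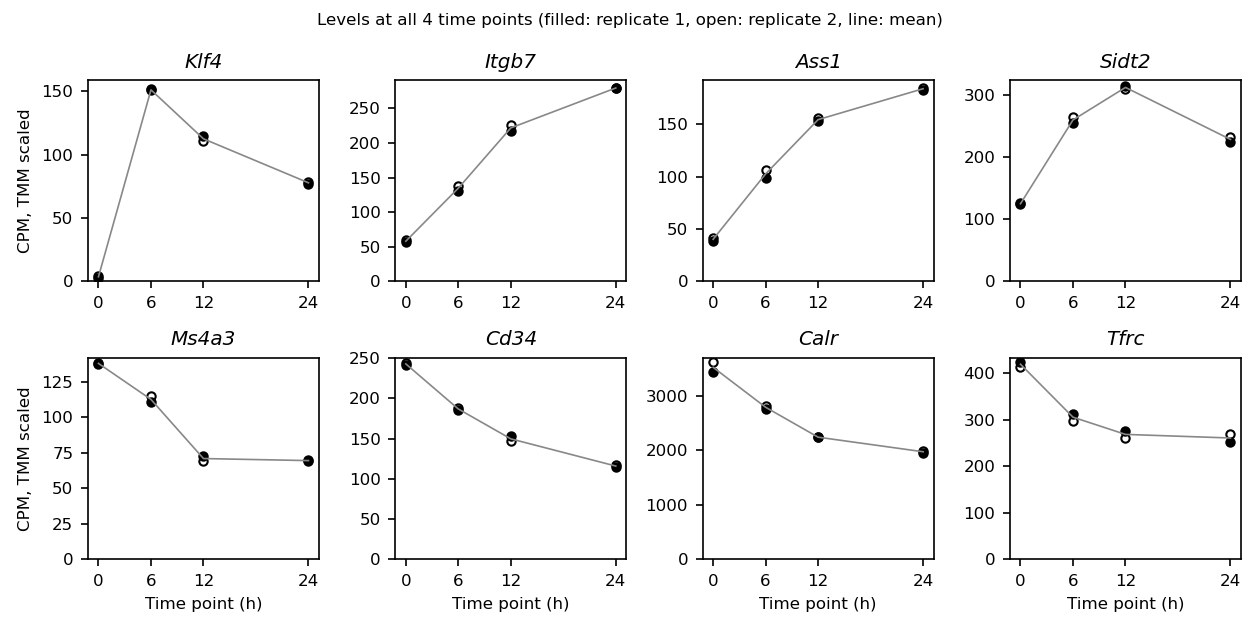
CPM (y axes, from 0) at each of the 4 time points in hours (x axes) for 4 genes that rose and 4 that fell between 0h and 12h; filled and open circles are replicates 1 and 2, and lines join the means. Klf4 and Sidt2 are lower at 24h than at 12h, Itgb7, Ass1, Cd34 and Calr go on in the direction they took, and the 24h values of Ms4a3 and Tfrc were not called different from 12h.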

How the data were processed

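RNA was sequenced in 8 libraries of sorted TetO-Klf4-AML cells, 2 at each of 0h, 6h, 12h and 24h; per the labels' protocols, RNeasy columns were used for RNA and a TruSeq PE kit for the libraries. The authors deposited raw counts per Ensembl gene, 1 file per library, without normalization. Per the submitters' processing notes STAR, SAMtools 1.3, HTSeq 2.0.3 and build mm10 were used; the STAR version, annotation release and strand setting were not given in the sources used here, so reads of overlapping and antisense gene pairs may be mixed. Each file held 47069 gene rows and 5 summary rows, which were left out of totals and tests. GENCODE M21 named 46574 of the gene IDs. Sequences came from the RefSeq promoter table on GRCm38.p6, which matched 344 of the 439 genes chosen by the rule below.

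Genes were kept by edgeR's filterByExpr and scaled by TMM, and all 8 libraries entered 1 quasi-likelihood fit (edgeR 4.0.16, R 4.3.3) with a mean per time point, 4 residual degrees of freedom and a biological coefficient of variation of 3.10%. Tests were two-sided with Benjamini-Hochberg adjustment over all genes, called under 0.05; a second test (glmTreat) took a fold of 1.5 as its threshold. Replicates differed by more than sampling noise. Ratios against 1 to 3 counts carry exact 95% binomial intervals, and 0 counts were taken to allow 3; both cover counting error only. The same steps were tested on simulated counts for all 8 libraries, built from each gene's mean over the series and 1 common dispersion. Changes were set only in the 12h libraries, in 50 genes per fold with a mean of at least 1 CPM, and 13941 genes were tested. There 52%, 94%, 98% and 100% of genes changed by 1.25, 1.5, 2 and 4-fold were called with the right sign. Of the calls 4.97% were false, with far fewer genes changed than the 43.7% called in the data, so these shares need not hold there. Changes in genes under 1 CPM, or in genes noisier than the common dispersion, were not covered.

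The 79 gene lists, their members and the rules were chosen with earlier results of these data known. Named were Klf4, the 12 largest rises and falls among genes of at least 50 CPM that are not predicted gene models, the 6 largest gains and losses in CPM, up to 4 members of each list with the smallest adjusted p, members called against most of their list, and paralogs of these. Acta2, BC035044, Csf1r, Eno1, Fcgr1, Gdf15, Hes1, Hoxa9, Mthfd2, S100a8, S100a9 and Shmt2, and the genes with 0 counts at 0h, were named after their values were seen. Of the 439 genes chosen by the rule 253 are named, a few items are not reported here, and 27 genes were left out after their calls were seen to depend on 1 library or setting; the closing section lists them. Alternatives were DESeq2 1.42.0, its size factors, other filters on low counts, a replicate block, the 4 libraries alone, GC and length corrections, and leaving out each library in turn.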

Additional observations from a re-analysis of the deposited data

Results flagged for a closer look

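Fragments counted to no gene feature, which no comparison used, made up 8.63% ± 0.45 of all fragments at 12h and 5.47% ± 0.32 at 0h (SD, n = 2 each), and both 12h libraries, at 8.31% and 8.95%, lay above both 0h libraries, at 5.70% and 5.25%. Groups of 2 libraries are too small for a test of single outlying samples, so none was made.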

How the results depend on the processing

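The number of genes called between 12h and 0h, 6229, was between 4627 and 6627 when 1 of the 8 libraries was left out, 4419 with DESeq2 and 6116 with the replicate block. Leave-one-out counts were 2317 to 3318 higher, 2302 to 3328 lower, 436 to 628 against a fold of 1.5, 822 to 1069 at 2-fold or more, 750 to 993 higher and 56 to 76 lower at 2-fold or more. The GC and length correction that centres the mean gene gave 1818 higher and 5658 lower, with 131 lower at 2-fold or more; the cause was not tested. The stricter filter, which tests fewer genes, gave 310 against a fold of 1.5 and 275 at 2-fold or more, 267 higher and 8 lower. DESeq2 gave 655 at 2-fold or more and 20 lower, 1485 for 12h against 6h and 417 for 24h against 12h; the cause was not tested. The 2947 calls between 12h and 6h were between 1296 and 3061 with 1 library left out, 1296 without 12h replicate 2 and 1853 without 12h replicate 1. The 921 calls between 24h and 12h were between 373 and 1256, with 373 without 12h replicate 1, 386 without 12h replicate 2 and 449 without 24h replicate 2. Differences between replicates 1 and 2, taken over all genes, correlated at -0.04 to 0.08 between time points. Such a correlation cannot show whether same-numbered libraries share an origin that moves only some genes, and the labels do not say. The block gave 3102 higher and 3014 lower.

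The naming rule chose 439 genes, of which 253 are named in the text. After their calls were seen to be lost in at least 1 setting, 27 genes of an earlier draft were left out of the text: Actb, Bik, Cd14, Cd48, Cd68, Cdt1, Csf2ra, Cxcl2, Ddit4, Depdc5, H2-Eb1, Hdac3, Hdac7, Hdac8, Hoxa3, Hoxa5, Hoxa6, Kdm6b, Ltf, Mcl1, Mcm3, Mlx, Msi2, Snhg8, Srsf4, Tuba1b and Tubb4b. The genes in the text are therefore more stable than the rule's choice as a whole, and their stability is no evidence about it. Over the 457 genes chosen by the rule, named or left out, 439 were called, and 126 of these lost the call or turned sign in at least 1 setting, 24 of them named in the text. Of 7726 values of a gene in a setting, 368 lost the call, 15 gained it and 31 turned sign, all of these after a GC and length correction. Among genes in the text, Pdgfrb, not called, turned sign under the centring correction, with a log2 fold change of -0.17 (adjusted p = 0.014); Fcgr1 was not called by DESeq2 (adjusted p = 0.074). Depth limits the low genes, whose values rest on few counts in 2 libraries a group.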

Other observations

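Among the regulators that add to or remove marks on chromatin, 12 of 31 genes rose and 7 fell, turned to 2 and 15 by the GC and length correction that centres the mean gene and to 7 and 4 without 12h replicate 2 or 0h replicate 2. The class I deacetylase Hdac1 (-0.28 ± 0.04) fell. In the MYC network 4 rose and 4 fell of 10, 2 and 4 after the GC and length correction: the antagonist Mxd3 rose by 0.74 ± 0.13, whereas Mxd4 (-0.33) and Max (-0.30) fell with Myc. Splicing regulators of the SR and CLK families had 5 rises and 7 falls of 21, 5 and 4 after the GC and length correction and 5 and 3 without 0h replicate 1, with Srsf7 at -0.26 ± 0.04.

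Tetraspanins, which organise membrane proteins, rose in 7 of 17 cases and fell in 5, 5 and 7 under the centring correction and with 3 falls without 0h replicate 2. Cd9 had 23.4 and 25.2 CPM at 12h, against 14.7 and 11.6 CPM at 0h, and Cd63, of late endosomes and granules, had 392 and 377 CPM at 12h, against 522 and 525 CPM at 0h. In the autophagy list 6 rose and 5 fell of 32, 3 and 8 after the GC and length correction and 3 and 5 without 0h replicate 1; Wipi1 rose by 0.46 ± 0.06, and the cargo receptors Sqstm1 (-0.28) and Tax1bp1 (-0.32) fell. Stem and progenitor surface genes gave 3 rises and 2 falls of 9, 3 and 4 under the centring correction, in which Kit (-0.35 ± 0.05) fell with Cd34, and Cd244a (0.40 ± 0.07) rose.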
